A study of Mus musculus with 6 samples.

Results

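Col15a1+ preadipocytes are fibroblastic adipose stem and progenitor cells (ASPCs) of mouse inguinal white adipose tissue (iWAT) that carry transcripts of Col15a1 together with Lamc3, Cxcl14, Cox8b or Hsd11b2. They were picked by their own counts: a cell barcode needed at least 2000 unique molecular identifiers (UMIs, each a captured RNA molecule), under 10% mitochondrial UMIs, at least 30 Dcn UMIs per 10000, and no UMI of Pecam1, Cdh5 or Ptprc. It further needed at least 3 UMIs of Col15a1, at least 2 of Lamc3, Cxcl14, Cox8b and Hsd11b2 together, at most 2 of Pi16, at most 1 of Fmo2 and Cyp2f2 together, and none of Scg3, Tfpi2, Cyp26b1 or Mcoln2. Of 68103 barcodes in the 6 libraries, 6287 (9.23%) met these limits. They numbered 912, 1170 and 1019 in young mice at thermoneutrality (TN), after 3 days of cold (3D) and after 14 days of cold (14D), and 1558, 1135 and 493 in aged mice in the same order, which is kept for every set of 3 values here.

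The study asked how aging changes the stromal cells of iWAT during cold-induced beiging. Single-cell libraries were made from the collagenase-digested stromal vascular fraction after CD45+ immune cells had been sorted out. Young mice were 9 weeks old and aged mice 57 weeks old at harvest, and all were male C57BL/6 mice, with no transgene named for these libraries. After 3 weeks at 30 °C, mice stayed at 30 °C (TN) or were moved to 6 °C for the last 3 or 14 days, single housed for the final temperature treatment. Each combination of age and temperature was 1 library, so an age was represented by 3 libraries at different temperatures and a temperature by 2 libraries of different ages. The study's methods say that mice were not pooled unless stated, but the number of mice behind each library and the substrain of each group (C57BL/6JN or C57BL/6J) were not given in the sources used here, and a difference between ages cannot be told apart from one between the mice or library preparations behind these 6 samples.

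Members held 9598450, 10700995 and 8702434 UMIs in the young and 11582005, 8611620 and 4095244 UMIs in the aged libraries. The aged 14D library stood apart from the others: its median barcode had 2588 UMIs against 6232 to 8954 elsewhere, and 38.2% of its barcodes fell short of 2000 UMIs against 7.04% to 11.7%. Its members were as deep as the rest, with a median of 8276 UMIs against 7176 to 10572 in the other libraries, but they were the fewest. The numbers of all genes that changed with age and with temperature are therefore also given without this library. Among the fibroblasts that passed the limits on depth, mitochondrial UMIs, Dcn, Pecam1, Cdh5 and Ptprc, members made up 12.6%, 13.4% and 10.9% in young and 22.3%, 13.1% and 8.22% in aged mice. These shares depend on depth through the UMI limits and account for the members only. Pairs of libraries had 30 to 44 barcode sequences in common, of which at most 1 belonged to members of both.

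White fat grows by enlarging its adipocytes and by forming new ones from Pdgfra-expressing fibroblasts of the stroma. In iWAT these cells include Dpp4+ interstitial progenitors, Icam1+ preadipocytes that carry Pparg and lipid-handling genes and sit close to blood vessels, and Cd142+ (F3-expressing) cells. Preadipocytes surround themselves with basement membrane, a thin sheet of type IV collagen, laminin, nidogen and perlecan that also wraps every mature fat cell. Col15a1 encodes a collagen bound to that sheet, Lamc3 a laminin gamma chain, Cxcl14 a chemokine, Hsd11b2 the enzyme that inactivates glucocorticoids, and Cox8b a cytochrome c oxidase subunit of muscle and brown fat.

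The genes that picked the cells are described without a test. Levels are UMIs of the gene per 1000000 UMIs summed over the members of a library (CPM). Col15a1 was at 1247, 1237 and 1337 CPM in young and 1020.5, 856 and 937 CPM in aged mice, and Cxcl14 at 1528, 1232 and 1202 CPM in young and 1751, 1296 and 1203 CPM in aged mice. Lamc3 was at 67.2, 58.4 and 91.5 CPM in young and 128, 82.8 and 86.9 CPM in aged mice, and Cox8b at 69.8, 145 and 91.0 CPM in young and 73.5, 158 and 158 CPM in aged mice. Hsd11b2 was at 58.8, 34.4 and 86.8 CPM in young and 17.1, 17.5 and 35.7 CPM in aged mice. Among the 4 genes of which any could qualify a cell, Cxcl14 was seen in nearly all members (90.6% to 97.7% by library) and the others in fewer: Lamc3 in 26.8% to 52.0%, Cox8b in 30.3% to 51.9%, and Hsd11b2 in 30.9%, 16.5% and 32.2% of young and 8.99%, 8.02% and 17.0% of aged members. Most members carried 1 or 2 of the 4 (27.2% to 39.2% carried 1, 35.9% to 46.1% carried 2), and 1.85% to 4.50% carried all 4. At the edges of the rule, 631 members had exactly 3 Col15a1 UMIs while 595 cells that met every other limit had 2, and 2410 cells were left out by a lone UMI of the Scg3 group.

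Icam1, the marker that names the preadipocytes of iWAT and that the rule did not use, was present in these cells in all 6 libraries. With every cell thinned to 2000 UMIs, an Icam1 UMI was found in 41.3, 51.7 and 48.3% of young and 55.1, 67.8 and 56.8% of aged members (78.9% to 92.4% without thinning), against 4.53% to 9.25% of Dpp4+ fibroblasts (14.2% to 22.04% without thinning). The 95% exact binomial interval of any such share of members reached at most 4.50 percentage points to either side, for counting error only. Of 12 further preadipocyte genes outside the rule, Icam1 included, 11 were higher in the members than in Dpp4+ fibroblasts in all 6 libraries, 11 higher than in Cd142+ fibroblasts and 10 higher than in preadipocytes with Scg3 (Scg3+ preadipocytes, cells with at least 2 UMIs of Scg3, Tfpi2, Cyp26b1 and Mcoln2). Pparg, the master regulator of adipocyte differentiation, averaged 54.1 CPM against 40.6, 19.4 and 4.66 CPM in Scg3+, Cd142+ and Dpp4+ cells, and Lpl, which releases fatty acids from lipoproteins, 4139.6 CPM against 2776, 2007 and 396 CPM. The type IV collagen chain Col4a1 averaged 3729 CPM against 3185, 1791 and 249.7 CPM in the same order. Cd36 was not higher than in Scg3+ preadipocytes in the aged TN library, at 27.0 against 27.5 CPM, and was higher in the other 5. Dlk1, an inhibitor of adipocyte differentiation, was the exception against each population and was at 2.51, 0.375 and 2.74 CPM in young and 1.36, 0 and 0 CPM in aged members. Of 11 Dpp4+ fibroblast markers Dpp4 had helped to pick those cells, and the other 10 were lower in the members than in Dpp4+ fibroblasts in every library, and none of 9 Cd142+ fibroblast markers was higher in the members than in Cd142+ fibroblasts. The label of preadipocyte held on these measures. Because the cells were chosen on their counts, such differences between populations are given without a test.

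**Figure D1:**
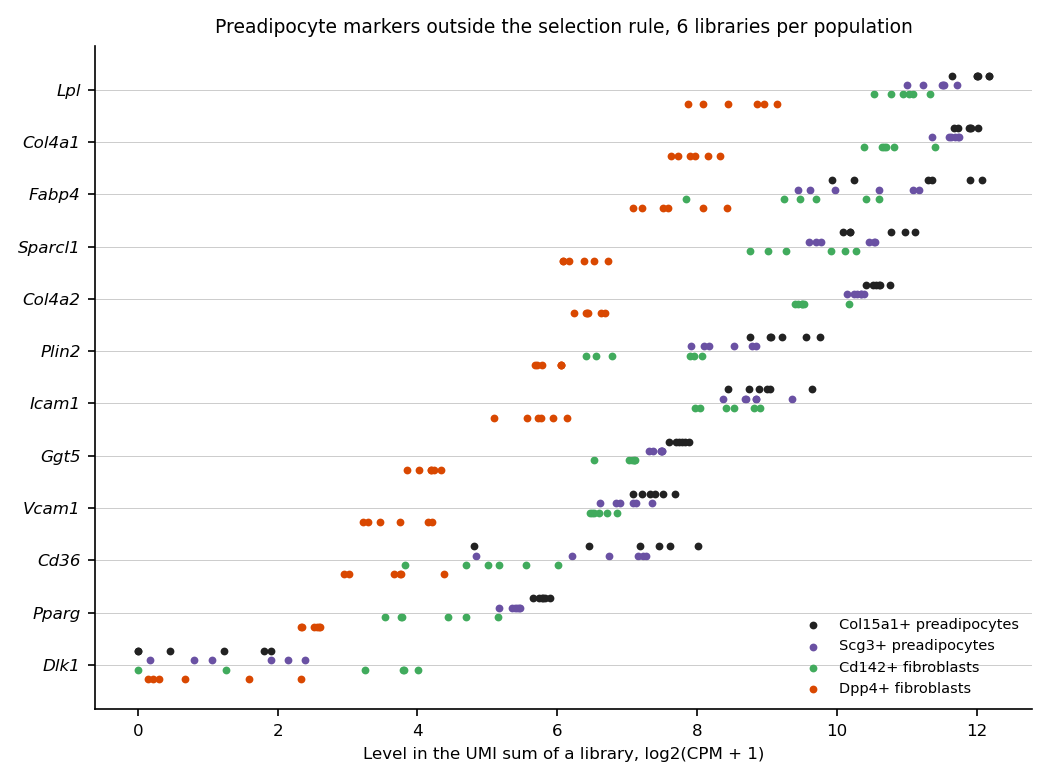
Levels of preadipocyte markers outside the selection rule, in CPM on a log axis, with 1 point per library for Col15a1+ preadipocytes and the 3 compared populations. Points of the members lie to the right of those of Dpp4+ fibroblasts for every gene but Dlk1, for which libraries overlap near 1 CPM.

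Markers of other cell types were at uneven levels in the members. The rule itself left out cells with a UMI of Pecam1, Cdh5 or Ptprc, which bears on the endothelial and immune sums. Summed over 11 immune markers the members held 11.7 to 28.0 CPM, with Cd68 the most abundant in each library, with Adgre1 and Cd3e at 0 in all 6 libraries. The 7 endothelial markers other than Fabp4, a gene that preadipocytes share, summed to 5.94 to 11.0 CPM. Of 10 adipocyte markers the sum was 83.9, 97.4 and 136 CPM in young and 72.2, 109 and 156 CPM in aged mice, led by Car3 in 5 libraries and by Plin4 in the young 3D library, with Adrb3 at 0 in 3 libraries. The 6 Schwann markers summed to 13.5, 15.05 and 11.6 CPM in young and 26.8, 27.9 and 24.7 CPM in aged mice, mostly Cdh19. The 9 pericyte and smooth muscle markers, which summed to 105 to 321 CPM, were lowest in the aged 14D library. Red blood cell genes stood at 2.81, 606 and 2.18 CPM in young and 2.59, 5.81 and 56.7 CPM in aged mice. Their highest gene, Hbb-bs, had 63.5% of its UMIs in a single member of the young 3D library, of 84 members there with at least 1. A barcode with UMIs of several lineages can be a doublet: 11.4% to 19.6% of members by library had a UMI of another lineage's marker.

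Set beside the other fibroblasts of the same libraries, the members had higher levels of Cldn15, Plin2 and a further set of genes. Among 5404 genes with a mean of at least 20 CPM in the members, 359 were higher in the members than in all 3 other populations in all 6 libraries. Cldn15, a tight junction claudin, led this order with 112 CPM against 55.0, 33.6 and 4.07 CPM in Scg3+, Cd142+ and Dpp4+ cells, a log2 ratio of 0.68 to 1.24 to the highest of the others. Plin2, which coats lipid droplets, was at 431, 534 and 529.8 CPM in young and 591, 758 and 867 CPM in aged mice, and at 240.4, 289 and 274 CPM in young and 370.4, 441 and 459.7 CPM in aged mice in Scg3+ preadipocytes, the nearest population. The remaining 8 genes named by the same order had lowest log2 ratios between 0.50 and 0.61. They were H2-Q6 and H2-Q10, non-classical MHC class I genes whose reads are hard to tell from those of their paralogs, Spaar, a small lysosomal polypeptide, Cd300lg, a receptor best known from capillary endothelium, Ephx2, the soluble epoxide hydrolase, Slc9a3r2, a membrane scaffold protein, Pappa, a protease that frees IGF from its binding proteins, and Olfm2, an olfactomedin. Cd300lg averaged 63.9 CPM against 28.5, 25.2 and 3.101 CPM and Pappa 33.0 CPM against 16.7, 10.6 and 0.951 CPM. When each population was reduced to equal numbers of cells at 2000 UMIs, the lowest ratio was -0.48 for Cd300lg, -0.33 for Pappa and -0.08 for Ephx2, so these 3 were then not higher in every library. It was 0.32 for H2-Q6 and 0.25 for H2-Q10, against 0.61 and 0.55 with all cells. The distance to the other populations was uneven. Of the 5404 genes, 336 were at least 1 log2 unit higher in the members than in Dpp4+ fibroblasts in all 6 libraries, and 1 than in Scg3+ preadipocytes. At least 1 unit lower were 422 genes beside Dpp4+ fibroblasts and 18 beside Scg3+ preadipocytes. These were counted among genes with at least 20 CPM in the other population, not among the 5404, so each count draws on the side where its genes are high. The fibronectin gene Fn1 and Dpp4 were among those 18. By these counts Scg3+ preadipocytes were closer to the members than Dpp4+ fibroblasts were. The selection bears on this order: members and Scg3+ preadipocytes had the same upper limit on Pi16, while Dpp4+ fibroblasts were picked by Pi16 and Dpp4.

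Several growth-linked imprinted genes and matrix genes were lower in aged members. Meg3, Itm2a, Gpc3, Igf1, Postn and several imprinted genes were lower at 57 weeks, and Cd9, Pla1a, Mlana, Mgp and Cdkn1c were higher. With temperature as a term, 1065 of 11555 genes tested (9.22%) differed between ages in edgeR's quasi-likelihood test at a Benjamini-Hochberg adjusted p of 0.05, of which 603 were higher (5.22%) and 462 lower (4.0%) in aged mice. All adjusted p-values here come from this kind of test on UMI sums per library. For every gene list below, the share called by age is to be read beside the 9.22% of all genes tested. Of the 1065 genes, 1059 had the same direction at all 3 temperatures, and for 779 the 3 young and 3 aged libraries did not overlap, as they also did not for 2310 of all genes tested (20%). The count was 1331 without the aged 14D library, 315 without young 3D and 328 without aged 3D, and 955, 301 and 313 of the 1065 genes were among them. The 11 Dpp4+ fibroblast markers summed to 524, 361 and 434 CPM in young and 343, 251 and 372 CPM in aged members, lower in the aged library at each temperature, with Fn1 or Pcolce2 the most abundant and none at 0. Pi16, which the rule limits, was at 30.8, 27.3 and 50.8 CPM in young and 8.63, 19.6 and 32.2 CPM in aged members. Their part in the age differences was not tested. A lower sum over the members can come from fewer members with the transcript or from less of it in each.

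**Figure D2:**
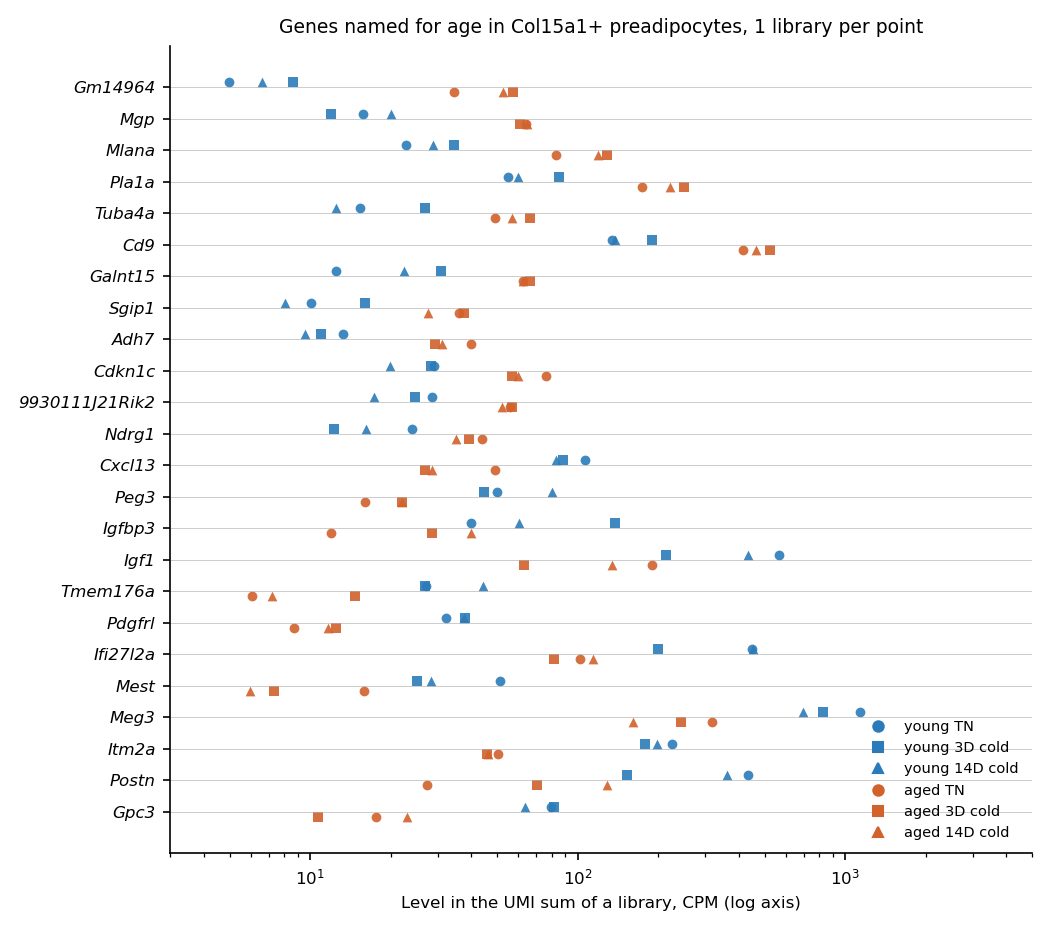
The 24 genes named for age in Col15a1+ preadipocytes, in CPM on a log axis, 1 point per library, with young and aged libraries in different colours. For each of the 24 the 3 young points and the 3 aged points do not overlap, as the rule for naming them required.

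Among genes that averaged at least 20 CPM, the falls with age were led by Gpc3, Postn, Itm2a and Meg3. Gpc3 (chrX:52272426-52613950, reverse strand, GRCm38), a cell-surface heparan sulfate proteoglycan, was at 79.5, 81.7 and 63.6 CPM in young and 17.6, 10.7 and 23.1 CPM in aged mice (log2 fold change -2.21 ± 0.19, adjusted p = 4.8e-05). Itm2a (chrX:107397099-107403376, reverse strand), a membrane protein of the BRICHOS family, was at 225, 179 and 199 CPM in young and 50.5, 45.9 and 46.4 CPM in aged mice (log2 fold change -2.07 ± 0.08, adjusted p = 1.9e-07). Meg3 (chr12:109541001-109571726, forward strand), a maternally expressed imprinted long non-coding RNA, was at 1135, 829 and 697 CPM in young and 319, 243 and 161 CPM in aged mice (log2 fold change -1.90 ± 0.09, adjusted p = 5.8e-07). For all 3 genes every young library lay far above every aged one, at each temperature. The difference was also visible cell by cell: thinned to 2000 UMIs, 64.8, 58.2 and 50.9% of young members had a Meg3 UMI and 20.7, 15.2 and 15.01% of aged ones (85.6, 80.2 and 73.4% and 27.2, 22.2 and 22.1% without thinning), against 3.49% to 7.28% of endothelial barcodes. For Itm2a the shares were 33.4, 27.5 and 32.4% in young and 8.92, 8.02 and 11.2% in aged members (77.3, 69.9 and 72.2% and 24.6, 23.5 and 27.8% without thinning), with 5.25% to 18.1% of endothelial barcodes beside them.

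Igf1, Igfbp3 and Pdgfrl fell with them. Igf1 (chr10:87858265-87937042, forward strand), which encodes insulin-like growth factor, was at 566, 213 and 433 CPM in young and 189, 63.1 and 135 CPM in aged mice (log2 fold change -1.67 ± 0.08, adjusted p = 5.8e-07). Igfbp3, whose product carries IGF, was at 40.0, 138 and 60.3 CPM in young and 11.98, 28.6 and 39.9 CPM in aged mice (log2 fold change -1.59 ± 0.23, adjusted p = 0.0015). Pdgfrl, a PDGF receptor-like gene, was at 32.2, 38.0 and 37.5 CPM in young and 8.69, 12.5 and 11.7 CPM in aged mice (log2 fold change -1.73 ± 0.11, adjusted p = 6.6e-06). The levels of Igf1 and Igfbp3 also moved with temperature, in opposite directions at 3D, and without the temperature term neither passed the threshold. Igf1 overlaps a gene on the other strand, and whether reads were counted by strand is not given in the sources used here. Over the list of IGF, PDGF, FGF and VEGF signals, 8 of 26 genes tested were lower and 3 higher in aged mice (42.3% called, median log2 fold change -0.13, beside -0.01 over all genes tested). Besides those named, Igfbp5 and Igfbp4 were lower (log2 fold changes -0.55 and -0.79), as was Fgf10, a growth factor for preadipocytes, at 68.7, 50.4 and 95.2 CPM in young and 30.5, 26.7 and 28.3 CPM in aged mice (-1.25). Igfbp6 was higher (0.52). Without young 3D or aged 3D the number lower was 4.

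Imprinted genes, which are expressed from a single parental allele and many of which set the pace of early growth, were the list with the most negative median. Of 17 genes tested, 9 were lower and 1 was higher in aged mice (58.8% called, beside 9.22% of all genes tested, median -1.01). Mest, expressed from the paternal allele, was at 51.1, 25.1 and 28.4 CPM in young and 15.9, 7.33 and 5.95 CPM in aged mice (log2 fold change -1.81 ± 0.12, adjusted p = 9.3e-06), and its gene overlaps Copg2. The zinc finger gene Peg3 was at 50.2, 44.9 and 80.1 CPM in young and 16.1, 22.1 and 22.1 CPM in aged mice (log2 fold change -1.48 ± 0.13, adjusted p = 7.2e-05). Plagl1, a zinc finger regulator of other imprinted genes, was at 43.0, 43.7 and 42.3 CPM in young and 21.6, 22.8 and 19.3 CPM in aged mice (log2 fold change -1.01 ± 0.09, adjusted p = 5.8e-05). Young and aged libraries were apart for all of these. H19 was at 15.1, 5.42 and 12.7 CPM in young and 0.169, 0 and 1.49 CPM in aged mice, so near 0 in aged mice that no fold is given. Cdkn1c, which encodes a cyclin-dependent kinase inhibitor and restrains growth, was the exception and was higher in aged mice, at 29.2, 28.2 and 19.9 CPM in young and 76.2, 56.8 and 60.02 CPM in aged mice (log2 fold change 1.31 ± 0.11, adjusted p = 3.7e-05). The number lower was 8 or 9 whichever library was left out.

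Among matrix genes that passed the test, those of the interstitial matrix and of collagen processing were mostly lower, while basement membrane genes went both ways. Of 31 interstitial matrix genes tested, 11 were lower and 3 higher in aged mice (45.2% called, median -0.18). Col3a1, with the highest level of those called, was at 21184, 12831 and 16774 CPM in young and 13714, 9442 and 14643 CPM in aged mice (log2 fold change -0.42 ± 0.11, adjusted p = 0.043), Col1a2 at 11229.7, 7170.3 and 9334 CPM in young and 7763, 5069 and 7399 CPM in aged mice (log2 fold change -0.46 ± 0.10, adjusted p = 0.015) and Col1a1, the other chain of type I collagen, at 5919, 3996 and 4739 CPM in young and 3435, 2472 and 3806 CPM in aged mice (log2 fold change -0.60 ± 0.11, adjusted p = 0.0054). The ages overlapped for Col3a1 and Col1a2 and not for Col1a1. Postn, a matricellular protein, fell further, from 433, 153 and 362 to 27.3, 70.7 and 128 CPM (log2 fold change -2.14 ± 0.41, adjusted p = 0.0082), with no overlap of the ages but a wide range within each. It did not pass with DESeq2 or without the temperature term, and without either TN library its log2 fold change was -1.30. Fbn2, a fibrillin of growing tissue, was at 8.90, 4.30 and 3.86 CPM in young and 0, 0.120 and 0.496 CPM in aged mice, at or near 0 in aged mice. Lox, which crosslinks collagen, was higher (log2 fold change 0.48 ± 0.10, adjusted p = 0.016). Without either 3D library 4 genes were lower, and without either TN library 7.

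Of 16 collagen folding and processing genes tested, 5 were lower and none higher (31.2% called, median -0.22). The collagen chaperone gene Serpinh1 was at 2509, 1894 and 2617 CPM in young and 1965, 1584 and 1905 CPM in aged mice (log2 fold change -0.36 ± 0.08, adjusted p = 0.024), and Pcolce, which enhances the trimming of procollagen, at 1355, 1007 and 1544 CPM in young and 906, 788 and 1152 CPM in aged mice (log2 fold change -0.45 ± 0.08, adjusted p = 0.0059). Their ages overlapped, with the aged libraries mostly lower. The procollagen proteinase genes Bmp1 and Adamts2 had log2 fold changes of -0.53 and -0.31, and the lysyl hydroxylase gene Plod2 -0.49. At an unadjusted p under 0.05, edgeR gave 10 lower and none higher, and DESeq2 gave 4 lower and none higher at its adjusted p. Without young 3D or aged 3D the number lower was 3.

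Of 23 basement membrane genes tested, 4 were higher and 4 lower (34.8% called, median -0.04). Sparc, a collagen-binding matricellular protein, was at 12662, 7298 and 10232 CPM in young and 7699, 5515 and 9176 CPM in aged mice (log2 fold change -0.43 ± 0.12, adjusted p = 0.045). Its relative Sparcl1 went the other way, at 1084, 1161 and 1162 CPM in young and 1744, 1985 and 2225 CPM in aged mice (log2 fold change 0.80 ± 0.08, adjusted p = 0.00021), and Smoc2, of the same family, was at 1007, 959 and 635 CPM in young and 1400.1, 1119 and 1027 CPM in aged mice (log2 fold change 0.46 ± 0.10, adjusted p = 0.013). Ages were apart for Sparcl1 and Smoc2 and overlapped for Sparc. Among the laminin chains Lamb1 was lower (-0.29) and Lamb2 higher (0.33). The type IV collagen genes that dominate the sheet did not pass the test, with Col4a1 at 3845, 3805 and 3258 CPM in young and 3813, 3374 and 4144 CPM in aged mice (log2 fold change 0.05 ± 0.11, adjusted p = 0.82). Without either 3D library 2 were higher and none lower.

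The largest rises with age were in genes of unlike kinds. Cd9 (chr6:125460266-125494791, reverse strand), a tetraspanin, was at 135, 189 and 137 CPM in young and 414, 522 and 463 CPM in aged mice (log2 fold change 1.61 ± 0.08, adjusted p = 1e-06), and 20.8, 26.2 and 21.98% of young and 51.2, 62.0 and 52.7% of aged members had a Cd9 UMI at 2000 UMIs (50.9, 59.6 and 49.4% and 84.4, 90.7 and 86.4% without thinning). Endothelial barcodes had one in 27.2, 27.6 and 27.9% in young and 29.0, 24.1 and 22.5% in aged mice, so that within each library the share of members lay below that of endothelial barcodes in young mice and above it in aged mice. Pla1a, a phospholipase of phosphatidylserine, was at 55.1, 84.9 and 59.8 CPM in young and 174, 249.6 and 221 CPM in aged mice (log2 fold change 1.70 ± 0.08, adjusted p = 9.9e-07). Mlana, a melanosome protein, was at 22.8, 34.5 and 28.7 CPM in young and 82.7, 129 and 119 CPM in aged mice (log2 fold change 1.94 ± 0.08, adjusted p = 3.2e-07). All 3 were higher in every aged library than in any young one, and the levels in the cold were not below those at TN in either age. Mgp, which encodes an inhibitor of calcification, was at 15.8, 11.97 and 20.1 CPM in young and 64.4, 60.9 and 64.5 CPM in aged mice (log2 fold change 2.02 ± 0.12, adjusted p = 3.4e-06), but its UMIs came from 38, 52 and 50 young and 135, 80 and 66 aged members. The remaining rises by the same rule were in Tuba4a (tubulin), Galnt15 (a mucin-type glycosyltransferase), Sgip1 (an endocytic adaptor), Adh7 (a retinol-oxidising alcohol dehydrogenase), 9930111J21Rik2, Ndrg1 and Cdkn1c, with log2 fold changes of 1.20 to 1.66. The largest rise by the rule, which leaves out genes under 20 CPM, was in Gm14964 (chr19:6530711-6532011, reverse strand, antisense to Nrxn2), at 4.97, 8.60 and 6.59 CPM in young and 34.6, 57.4 and 52.6 CPM in aged mice (log2 fold change 2.83 ± 0.11, adjusted p = 1.9e-07). Its reads cannot be told from those of Nrxn2 if counting ignored strand.

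Of the genes that passed the test, those of the chemokine and complement lists went both ways and those of the interferon list were lower in aged mice. Ifi27l2a, an interferon-induced gene, was at 449, 200.02 and 452 CPM in young and 103, 81.8 and 114 CPM in aged mice (log2 fold change -1.81 ± 0.14, adjusted p = 2.3e-05), and Tmem176a, a membrane protein gene that overlaps Tmem176b on the other strand, at 27.0, 26.9 and 44.3 CPM in young and 6.07, 14.8 and 7.19 CPM in aged mice (log2 fold change -1.73 ± 0.24, adjusted p = 0.0011). Cxcl13, a chemokine that attracts B cells, was at 106, 88.4 and 83.3 CPM in young and 49.3, 26.8 and 28.5 CPM in aged mice (log2 fold change -1.43 ± 0.11, adjusted p = 2.9e-05). All 3 had no overlap of the ages. Of 22 interferon and MHC class I genes tested, 8 were lower and none higher in aged mice (36.4% called, median -0.19), among them Irf1 (-0.52), Isg15 (-0.41), Bst2 (-0.35) and Ifit3 (-1.05). Of 23 chemokine, cytokine and adhesion genes, 5 were lower and 3 higher (34.8% called, median -0.03). Cxcl10, an interferon-induced chemokine, was at 235, 285 and 352 CPM in young and 80.7, 140.1 and 141 CPM in aged mice (log2 fold change -1.29 ± 0.10, adjusted p = 2.3e-05), while the neutrophil chemokine gene Cxcl1 was at 1024, 1257 and 1064 CPM in young and 1192, 2227 and 1730.0 CPM in aged mice (log2 fold change 0.58 ± 0.11, adjusted p = 0.0082) and Icam1, the adhesion molecule that marks these cells, at 344, 470.1 and 427 CPM in young and 507, 794 and 527 CPM in aged mice (log2 fold change 0.54 ± 0.09, adjusted p = 0.0039). Il34, a macrophage growth factor, had a log2 fold change of 1.63. Of 12 complement genes, 3 were lower and 2 higher (41.7% called, median -0.09), and C4b was at 534, 402 and 507 CPM in young and 229, 267 and 221 CPM in aged mice (log2 fold change -1.001 ± 0.11, adjusted p = 0.00037), with no overlap of the ages. Neither edgeR at an unadjusted p under 0.05 nor DESeq2 gave an interferon list gene that was higher in aged mice, and without aged 14D 1 passed. Without young 3D, 4 interferon genes and 3 chemokine list genes were lower, and without aged 3D, 5 and 3.

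Lipid genes did not move together. Of 24 genes tested, 3 were higher and 3 lower in aged mice (25.0% called, median -0.08). Fabp4, a fatty acid carrier, was at 967, 2538 and 2614 CPM in young and 1208, 3791 and 4309 CPM in aged mice (log2 fold change 0.54 ± 0.10, adjusted p = 0.0056), and Apoe, a lipoprotein component, at 1295, 1912 and 1862 CPM in young and 628, 903 and 858 CPM in aged mice (log2 fold change -1.08 ± 0.08, adjusted p = 1.9e-05). Plin2 was higher (log2 fold change 0.55 ± 0.08, adjusted p = 0.0016) and so was the phospholipid transfer protein gene Pltp (log2 fold change 0.79 ± 0.10, adjusted p = 0.00064), while Cd36 (-0.74) and the desaturase gene Scd2 (-0.71) were lower. For Apoe, Plin2 and Pltp the ages did not overlap. The difference of Cd36 was largest at TN, and without either TN library its log2 fold change was -0.34. Fabp4 and Cd36 did not pass without either 3D library or without the temperature term, nor did Cd36 with DESeq2 or with Col15a1 at 3 or more per 10000 UMIs. Of 22 adipogenic transcription factors tested, 2 were higher and none lower (9.09% called, median 0.02), which is close to the 9.22% of all genes: Klf4 (log2 fold change 0.43 ± 0.09, adjusted p = 0.012) and Cebpb (log2 fold change 0.40 ± 0.10, adjusted p = 0.026). Pparg itself was at 48.7, 53.8 and 52.1 CPM in young and 54.2, 54.9 and 58.5 CPM in aged mice (log2 fold change 0.11 ± 0.08, adjusted p = 0.43). At an unadjusted p under 0.05, 6 of these factors were higher and 1 lower in edgeR, and DESeq2 called the same numbers as the adjusted test. Among 15 glucocorticoid genes, of which 6.67% were called beside 9.22% of all genes tested, only Hsd11b1, which activates glucocorticoids inside the cell, passed the test, at 411, 436 and 292 CPM in young and 609, 672 and 552 CPM in aged mice (log2 fold change 0.70 ± 0.09, adjusted p = 0.00057).

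Of the genes that passed the test, most of the BMP and TGF-beta list were higher and most of the Wnt list lower. Of 24 BMP and TGF-beta genes tested, 8 were higher and 1 lower in aged mice (37.5% called, median 0.15). Id3, a target of BMP signals, was at 500.1, 468 and 496 CPM in young and 635, 748 and 649 CPM in aged mice (log2 fold change 0.47 ± 0.09, adjusted p = 0.0061). Ltbp1, which stores latent TGF-beta in the matrix, and the TGF-beta-induced gene Tgfbi had log2 fold changes of 0.36 and 0.89, and Tgfb1 itself 0.66. The inhibitor Smad7 was also higher (0.59), and the BMP antagonist Chrdl1 was lower (-1.33). Left without young 3D or aged 3D, the list had 2 that were higher, and without aged 14D, 11. Of 13 Wnt genes tested, 6 were lower and 2 higher (61.5% called, beside 9.22% of all genes tested, median -0.56). The receptor gene Fzd4 (-0.42), the ligand gene Wnt5a (-0.79) and the inhibitor genes Sfrp1 (-0.91), Sfrp2 (-0.59), Sfrp4 (-1.21) and Dkk2 (-0.94) were lower, and Fzd1 (0.61) and Wisp2 (0.81) higher, so that members with opposite roles in the pathway fell together. Without young 3D or aged 3D, 3 were lower.

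Called stress genes were higher in aged mice. Of 20 immediate early and stress genes, which dissociation of tissue can induce, 5 were higher and none lower in aged mice (25.0% called, beside 9.22% over all genes tested, median 0.15), led by Ier3 (0.51) and Hspa1a (0.77), with 8 higher and 1 lower at an unadjusted p under 0.05 and 5 higher and none lower by DESeq2. None of them passed without young 3D or aged 3D, and 8 did without aged 14D. Of 11 cell cycle genes tested (18.2% called), the inhibitor gene Cdkn1a was higher, at 393, 435 and 349 CPM in young and 511, 561 and 575 CPM in aged mice (log2 fold change 0.49 ± 0.09, adjusted p = 0.0058), and Ccnd1 lower, at 15.8, 5.61 and 8.97 CPM in young and 3.04, 0.721 and 4.46 CPM in aged mice (log2 fold change -2.09 ± 0.28, adjusted p = 0.00095). Mki67, Top2a and Cdk1 were too low to be tested. Only 5 of 12 thermogenic genes could be tested, and none passed for age or temperature in edgeR or DESeq2. At an unadjusted p under 0.05, 1 was higher and 2 lower with age, and 1 was higher in the cold. Ucp1, Cidea and Dio2 were not among the 5. Of 9 genes from the study's account of age, a list chosen on these libraries and so not independent of them, in which Lgals3 and Cd36 were not named for fibroblasts, 3 were higher and 5 lower (88.9% called), and Lgals3 did not pass (log2 fold change 0.39 ± 0.12, adjusted p = 0.07).

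**Figure D3:**
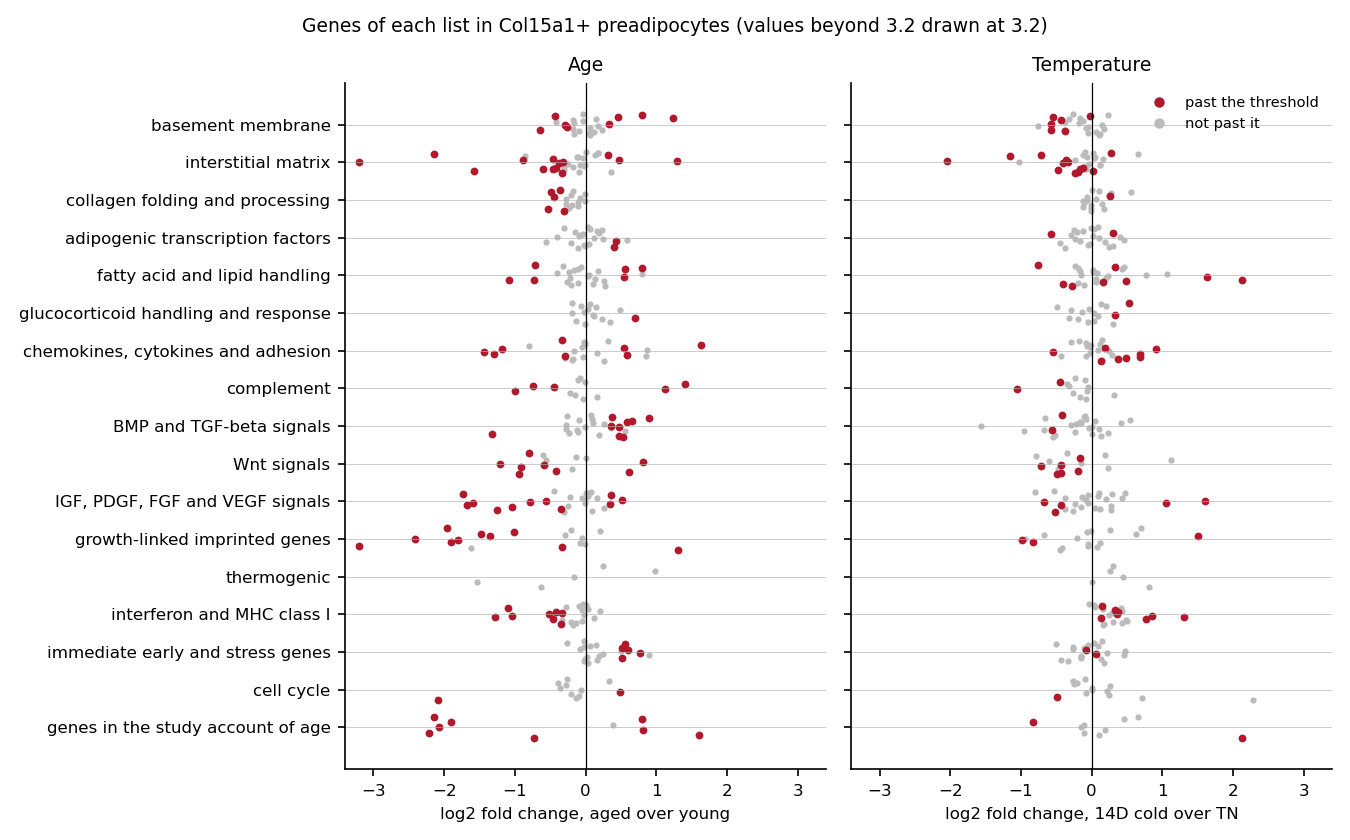
Log2 fold changes of single genes in each list, aged over young and 14D over TN, with genes past an adjusted p of 0.05 in red and the others in grey. Values beyond a set limit are drawn at that limit. The imprinted and Wnt lists sit left of 0 for age (medians -1.01 and -0.56) and the interferon list sits right of 0 for cold (median 0.31).

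In the cold, Fabp4, Cd36, Igfbp5 and several interferon genes were higher in the members, and several matrix genes, Sult1e1 and Apod were lower. With age as a term, 535 of 11833 genes tested (4.52%) differed between TN, 3D and 14D in edgeR's quasi-likelihood F test of both cold coefficients, 286 of them higher (2.42%) and 249 lower (2.1%) at 14D than at TN. Direction is given at 14D, but some genes passed through a change at 3D alone. Of the 535, 484 had the same direction at 14D in both ages, and 202 also differed with age. Without the age term edgeR's test gave none, with 431 higher and 413 lower at 14D at an unadjusted p under 0.05. Each temperature has 2 libraries, and the count was 72 without young 3D, 105 without aged 3D, 1154 without young TN, 1555 without young 14D and 1780 without aged 14D.

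**Figure D4:**
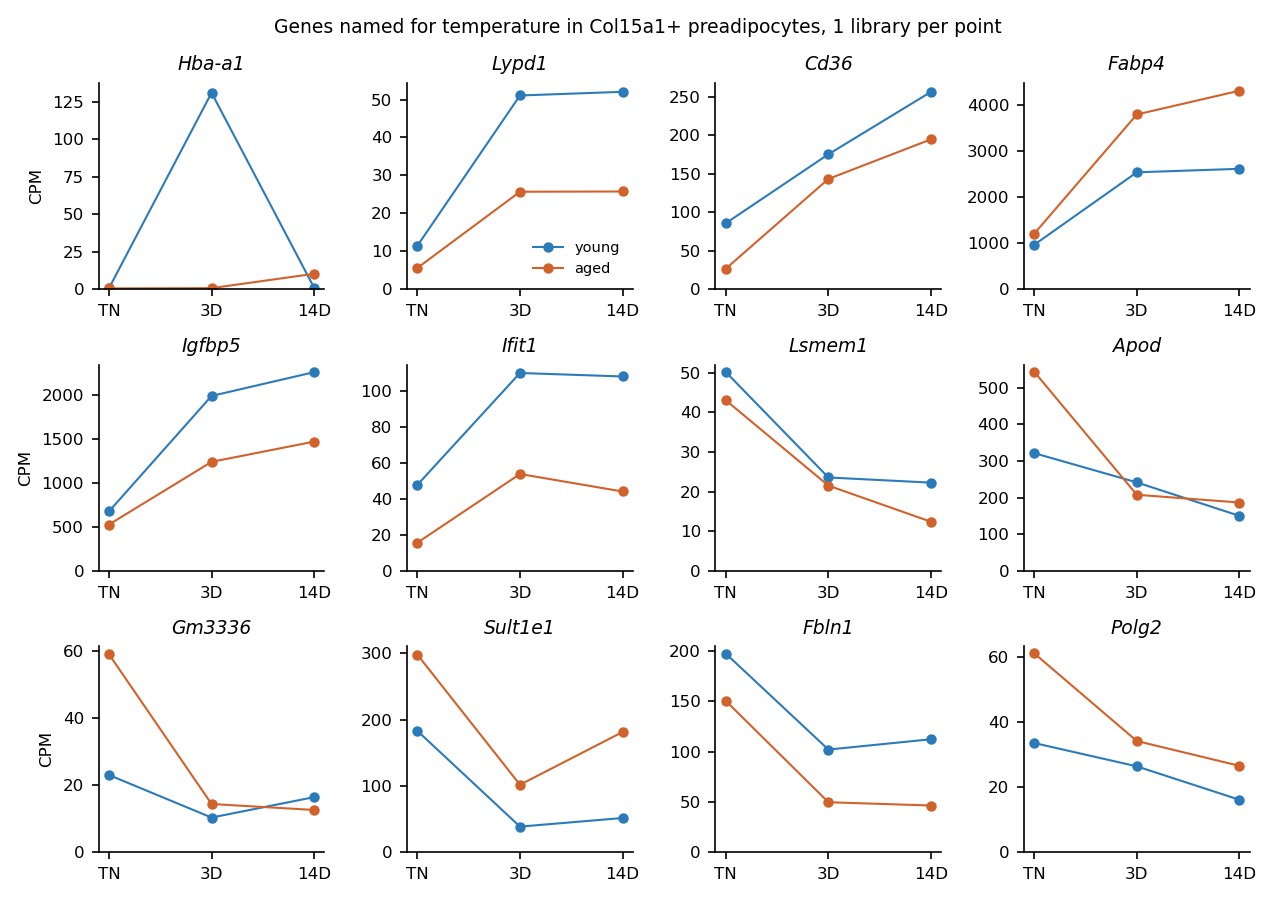
The 12 genes named for temperature in Col15a1+ preadipocytes, 1 panel per gene, with CPM on a linear axis against temperature. Each point is 1 library, and lines and points are coloured by age. Fabp4, Igfbp5 and Lypd1 at 3D and 14D lie above both TN libraries. The 3D point of Hba-a1 at 131 CPM belongs to the young library in which 1 member held 70.5% of its UMIs.

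Fabp4, Cd36 and Lypd1 were higher from 3D on. Fabp4 (chr3:10204088-10208576, reverse strand) was at 967, 2538 and 2614 CPM in young and 1208, 3791 and 4309 CPM in aged mice (log2 fold change 1.52 ± 0.12 at 3D and 1.63 ± 0.12 at 14D over TN, adjusted p = 0.00018). Cd36, which takes up fatty acids, was at 85.8, 175 and 256 CPM in young and 26.8, 143 and 195 CPM in aged mice (log2 fold change 1.64 ± 0.25 at 3D and 2.13 ± 0.25 at 14D over TN, adjusted p = 0.0027). Lypd1 (chr1:125867622-125913101, reverse strand), a LY6-family protein, was at 11.5, 51.1 and 52.0 CPM in young and 5.64, 25.7 and 25.8 CPM in aged mice (log2 fold change 2.17 ± 0.12 at 3D and 2.18 ± 0.12 at 14D over TN, adjusted p = 2.8e-05). In both ages the 2 cold libraries lay above the TN library for each gene, and 14D was no lower than 3D. At 2000 UMIs, 3.07, 9.06 and 9.22% of young and 1.22, 3.88 and 3.25% of aged members had a Lypd1 UMI (9.21, 26.0 and 25.8% and 3.59, 13.5 and 14.8% without thinning), against 0.0639% to 0.249% of Dpp4+ fibroblasts and 0% to 0.297% of endothelial barcodes. For Cd36 the shares were 11.7, 25.2 and 32.5% and 4.11, 18.6 and 24.7% (36.3, 52.3 and 62.9% and 13.0, 38.5 and 49.3% without thinning), against 1.15% to 4.84% in Dpp4+ fibroblasts. The rises of Cd36 and Fabp4 were not particular to the members. In Scg3+ preadipocytes Cd36 was at 73.4, 141 and 154 CPM in young and 27.5, 106 and 149 CPM in aged mice. Fabp4 was there at 693, 1559 and 1004 CPM in young and 787, 2318 and 2183 CPM in aged mice. In Cd142+ and Dpp4+ fibroblasts both genes were also higher in each cold library than at TN of the same age. Fabp4 and Cd36 are among the most abundant transcripts of endothelial cells, where 96.1% to 99.2% and 92.9% to 97.0% had a UMI. The 7 endothelial markers other than Fabp4 summed to 5.94, 6.35 and 11.0 CPM in young and 7.68, 8.24 and 10.7 CPM in aged members, and their part in the rise was not tested. Dpp4+ fibroblasts of the same libraries had a Fabp4 UMI in 11.4, 13.3 and 14.4% of young and 13.0, 16.9 and 29.6% of aged cells, against 57.8, 78.4 and 78.6% and 67.7, 87.5 and 87.2% of the members (78.3, 90.0 and 88.8% and 85.8, 95.2 and 94.3% without thinning). The part of free RNA in the rise was not measured or tested.

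Igfbp5, another IGF carrier, was at 675, 1985 and 2256 CPM in young and 526, 1238 and 1468 CPM in aged mice (log2 fold change 1.39 ± 0.11 at 3D and 1.61 ± 0.11 at 14D over TN, adjusted p = 0.00018). Over the whole list of fatty acid and lipid genes 5 of 25 tested were higher and 3 lower (32.0% called, median 0.07). Beyond Fabp4 and Cd36, Apoe was higher (0.49 at 14D), while Scd2 and Acly, which make fatty acids, were lower (-0.76 and -0.41). Angptl4, an inhibitor of lipoprotein lipase, was called through 3D alone (-0.59 at 3D and 0.16 at 14D). The number of lipid genes that were higher was 2 without young 3D or aged 3D and 9 without aged 14D. The sixth gene by the rule, Hba-a1, was at 0.724, 131 and 1.02 CPM in young and 0.674, 0.841 and 10.4 CPM in aged mice, with 70.5% of its UMIs in 1 member in the young 3D library and 85.7% in the aged 14D library.

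Ifit1, Irf1, Isg15 and other interferon genes rose in the cold. Of 22 interferon and MHC class I genes 8 were higher and none lower (36.4% called, median 0.31, beside 0.00 over all genes tested). Ifit1, an antiviral effector that binds foreign RNA, was at 47.8, 110.0 and 108 CPM in young and 15.7, 53.8 and 44.2 CPM in aged mice (log2 fold change 1.45 ± 0.13 at 3D and 1.31 ± 0.13 at 14D over TN, adjusted p = 0.00041). Irf1, a transcription factor of the interferon response, was at 302, 502 and 445 CPM in young and 231, 389 and 252 CPM in aged mice (log2 fold change 0.74 at 3D and 0.36 ± 0.12 at 14D over TN, adjusted p = 0.012), and Isg15, a ubiquitin-like modifier, at 120.0, 178 and 145 CPM in young and 85.6, 129.7 and 119 CPM in aged mice (log2 fold change 0.59 at 3D and 0.37 ± 0.09 at 14D over TN, adjusted p = 0.013). In each age the TN library was the lowest for all 3 genes, and at each temperature the aged library was below the young one. Over the alternatives the log2 fold change at 14D ranged from 0.12 to 0.57 for Irf1 and from 0.22 to 0.46 for Isg15. No gene of the list was lower in the cold at an unadjusted p under 0.05 in edgeR (14 were higher) or by DESeq2 (5 were higher). Psmb8 of the immunoproteasome (0.49 at 3D) and the peptide transporter gene Tap1 (0.48) were higher too. The number higher was 2 without young 3D or aged 3D, and 13 without aged 14D. Immune markers in the members, which the rule limits through Ptprc, summed to 16.7, 19.5 and 11.7 CPM in young and 28.0, 20.8 and 19.3 CPM in aged mice. Their part in the rise of interferon genes was not tested.

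Some of the interferon genes have in their promoters the letters of a known response element. Interferon-stimulated response elements hold the letters GAAA, then 2 bases of any kind, then GAAA again, which reads as TTTC on both sides of the gap on the other strand. These letters were searched on both strands in the 250 bases before each start site of RefSeq genes on GRCm38.p6, and were found for 978 of 32851 promoters (2.98%) and 936 of 27025 genes (3.46%). Of the 22 listed genes 19 were in the table and 7 held the letters. Of the 11 that changed with age or temperature, all in the table, 6 held them. The 30 bases around the match nearest the start are shown for these 6, read 5′ to 3′ on the gene's own strand, with the matching letters in capitals.

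Ifit1 chr19:34640794-34640823 forward strand: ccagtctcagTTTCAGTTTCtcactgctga
Ifit3 chr19:34583397-34583426 forward strand: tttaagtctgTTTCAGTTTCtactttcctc
Isg15 chr4:156200865-156200894 reverse strand: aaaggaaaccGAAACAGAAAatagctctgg
Bst2 chr8:71537577-71537606 reverse strand: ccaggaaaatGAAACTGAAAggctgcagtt
H2-T23 chr17:36032806-36032835 reverse strand: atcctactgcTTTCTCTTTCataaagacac
Rsad2 chr12:26456553-26456582 reverse strand: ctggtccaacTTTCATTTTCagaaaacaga

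Ifit1 and Ifit3 carry the same 10 capital letters, and Isg15 and Bst2 carry the GAAA orientation. Starts are those of RefSeq, and by GENCODE M21, where H2-T23 starts further upstream, its window lies inside the gene. A match describes the sequence and is not a measured binding site. Of these 6 genes, Ifit1, Ifit3 and Isg15 changed with both age and temperature, Bst2 and Rsad2 with age, and H2-T23 with temperature.

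Ccl11, Ccl7 and Ccl2 were highest at 3D in both ages. Of 23 genes in the chemokine, cytokine and adhesion list, 7 were higher and 1 lower by the sign at 14D (34.8% called, median 0.11). Ccl11, a chemokine of eosinophils, was at 811, 1211 and 808 CPM in young and 925, 1349 and 1106 CPM in aged mice (log2 fold change 0.56 at 3D and 0.13 ± 0.10 at 14D over TN, adjusted p = 0.021). Ccl7, which attracts monocytes, was at 721, 1103 and 705 CPM in young and 354, 1146 and 746 CPM in aged mice (log2 fold change 1.12 at 3D and 0.49 ± 0.21 at 14D over TN, adjusted p = 0.031), and Ccl2, a further chemokine of monocytes, at 196, 375 and 201 CPM in young and 129.6, 366 and 216 CPM in aged mice (log2 fold change 1.21 at 3D and 0.37 ± 0.14 at 14D over TN, adjusted p = 0.002). For all 3 genes the 14D value was close to that at TN in young mice and between TN and 3D in aged mice. Icam1 was also highest at 3D in both ages, with log2 fold changes of 0.55 at 3D and 0.19 at 14D (adjusted p = 0.038). Over the alternatives the 14D value ranged from 0.0047 to 0.36 for Icam1 and from 0.070 to 0.70 for Ccl2. Cxcl13 was the gene that was lower (-0.55 at 14D). None of the list passed without young 3D or without aged 3D, and 11 were higher without young TN. At an unadjusted p under 0.05, 10 were higher and 2 lower in edgeR, and DESeq2 called 5 higher and none lower. Of 15 glucocorticoid genes (13.3% called, beside 4.52% of all genes tested), Zbtb16, a transcription factor (0.53 at 14D), and the metallothionein gene Mt1 (0.79 at 3D) were higher.

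Matrix genes that passed the test were mostly lower in the cold. Of 31 interstitial matrix genes 11 were lower and 2 higher (41.9% called, median -0.11), and of 23 basement membrane genes 6 were lower and none higher (26.1% called, median -0.16). Col3a1 had log2 fold changes of -0.63 at 3D and -0.12 at 14D, and Col1a2 -0.63 and -0.17. Bgn, a small proteoglycan, was at 1412, 625 and 1131 CPM in young and 1195, 613 and 1141 CPM in aged mice (log2 fold change -1.07 at 3D and -0.19 ± 0.10 at 14D over TN, adjusted p = 0.00072), lowest at 3D and higher again at 14D in both ages. Fn1, fibronectin, was at 250.3, 97.8 and 176 CPM in young and 124, 51.8 and 107 CPM in aged mice (log2 fold change -1.31 at 3D and -0.37 ± 0.10 at 14D over TN, adjusted p = 0.00028), also lowest at 3D in both ages. Ogn, another small proteoglycan, was lower at both times (-0.66 and -0.72), as was Fbln1, a fibulin of elastic fibres, at 198, 102 and 112 CPM in young and 151, 49.9 and 46.6 CPM in aged mice (log2 fold change -1.28 ± 0.16 at 3D and -1.21 ± 0.17 at 14D over TN, adjusted p = 0.0017). Among the basement membrane genes Sparc was lower at 3D (-0.64) and not at 14D (-0.03), and Smoc2 at 14D (-0.55). Of the basement membrane genes, 2 were higher at an unadjusted p under 0.05 in edgeR and none by DESeq2. Without young 3D or aged 3D, 5 interstitial and no basement membrane genes were lower, and without aged 14D, 15 and 7.

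The falls at 14D that the rule named besides Fbln1 were in genes of unlike kinds. Sult1e1, the estrogen sulfotransferase, was at 183, 38.8 and 51.8 CPM in young and 298, 102 and 181 CPM in aged mice (log2 fold change -1.90 ± 0.20 at 3D and -1.26 ± 0.19 at 14D over TN, adjusted p = 0.00084). Apod, a lipid-binding lipocalin, was at 322, 242 and 150.3 CPM in young and 544, 208 and 187 CPM in aged mice (log2 fold change -0.90 ± 0.17 at 3D and -1.34 ± 0.18 at 14D over TN, adjusted p = 0.0035). Lsmem1, a small membrane protein, was at 50.2, 23.6 and 22.3 CPM in young and 43.1, 21.5 and 12.4 CPM in aged mice (log2 fold change -1.05 ± 0.13 at 3D and -1.38 ± 0.15 at 14D over TN, adjusted p = 0.00084). The TN library was the highest of its age for each, and for Sult1e1 the 14D values lay above those at 3D. Gm3336 (-1.28 at 14D) and Polg2, the accessory subunit of the mitochondrial DNA polymerase (-1.14), complete the 6 by the rule. Gm3336 did not pass with DESeq2 or without either 3D library, and at 14D its log2 fold change was -0.65 without aged TN, -0.67 without aged 14D and -2.11 without young 14D. That of Sult1e1 was -0.81 without young TN and -0.79 with equal numbers of cells at 2000 UMIs, and that of Apod -0.79 with equal numbers of cells. Single members held up to 21.1% of the Apod UMIs of a library (aged 14D). The reads of Polg2 may be shared with the overlapping gene Milr1.

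Of 14 Wnt genes tested in the cold, 6 were lower and none higher by the sign at 14D (42.9% called, median -0.39), among them Sfrp1 (-0.72 at 14D), Sfrp2 (-0.43), Dkk2 (-0.49) and the receptor genes Fzd1 (-0.43) and Fzd4 (-0.19), of which Fzd1 was higher with age, and with Wnt11 called through 3D (0.56 at 3D, -0.16 at 14D). No Wnt gene was higher at an unadjusted p under 0.05 in edgeR or by DESeq2. Without young 3D or aged 3D, 1 passed. Of the IGF, PDGF, FGF and VEGF list 3 of 26 were lower and 2 higher (19.2% called), with Igf1 lower (-1.49 at 3D and -0.44 at 14D) and Igfbp3 and Igfbp5 higher. Adipogenic transcription factors gave 1 higher, Stat5a (0.69 at 3D), and 1 lower, Srebf1 (-0.57 at 14D), of 22 (9.09% called). For all lists, those above included, the share called by temperature is to be read beside the 4.52% of all genes tested. Of 12 complement genes 2 were lower, C7 among them (16.7% called), and of 17 imprinted genes 1 was higher (Nnat) and 2 lower (Meg3 and Mest, 17.6% called). Of 20 immediate early genes 1 was higher (Fosl2) and 1 lower (Hspb1, 10.0% called). Of 25 BMP and TGF-beta genes 2 were lower (Gdf10 and Tgfbr3, 8.0% called), of 13 cell cycle genes 1 was lower (Ccnd1, 7.69% called) and of 17 collagen processing genes 1 was higher (Pcolce, 5.88% called). Without aged 14D most of these counts were larger, with 10 lower and 6 higher of the IGF, PDGF, FGF and VEGF list, 9 lower and 3 higher of the BMP and TGF-beta list and 8 lower and 4 higher of the imprinted list. Of the 9 genes from the study's account of age, Cd36 was higher and Meg3 lower with cold.

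Age effects in the members were then set against those in the other fibroblasts of the same libraries, by edgeR's quasi-likelihood test of the difference between the age effects with the library as a block. The 3 tests share the members' sums and are given side by side. The difference passed for 25 of 11846 genes (0.211%) against Scg3+ preadipocytes, for 45 of 10536 (0.427%) against Cd142+ fibroblasts, of which a library held 72 to 236 cells, and for 287 of 12486 (2.3%) against Dpp4+ fibroblasts. Against Scg3+ preadipocytes 2 of the 25 (0.0169% of genes tested) were more positive in the members, and against Dpp4+ fibroblasts 194 of the 287 (1.55%). The counts were 58 without aged TN and 28 without aged 14D against Scg3+ preadipocytes, 22 without young 14D and 29 without aged 14D against Cd142+ fibroblasts, and 137, 171 and 156 without young 14D, aged 3D and aged 14D against Dpp4+ fibroblasts. Of the 24 genes named for age, 12 had a difference past the threshold against at least 1 of the populations and 3 against all of them. Meg3 was among the other 12, with an age effect of -1.90 in the members and of -2.24 (adjusted p = 2.7e-07), -1.81 (adjusted p = 8.1e-06) and -1.93 (adjusted p = 1.2e-08) in Scg3+, Cd142+ and Dpp4+ cells.

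**Figure D5:**
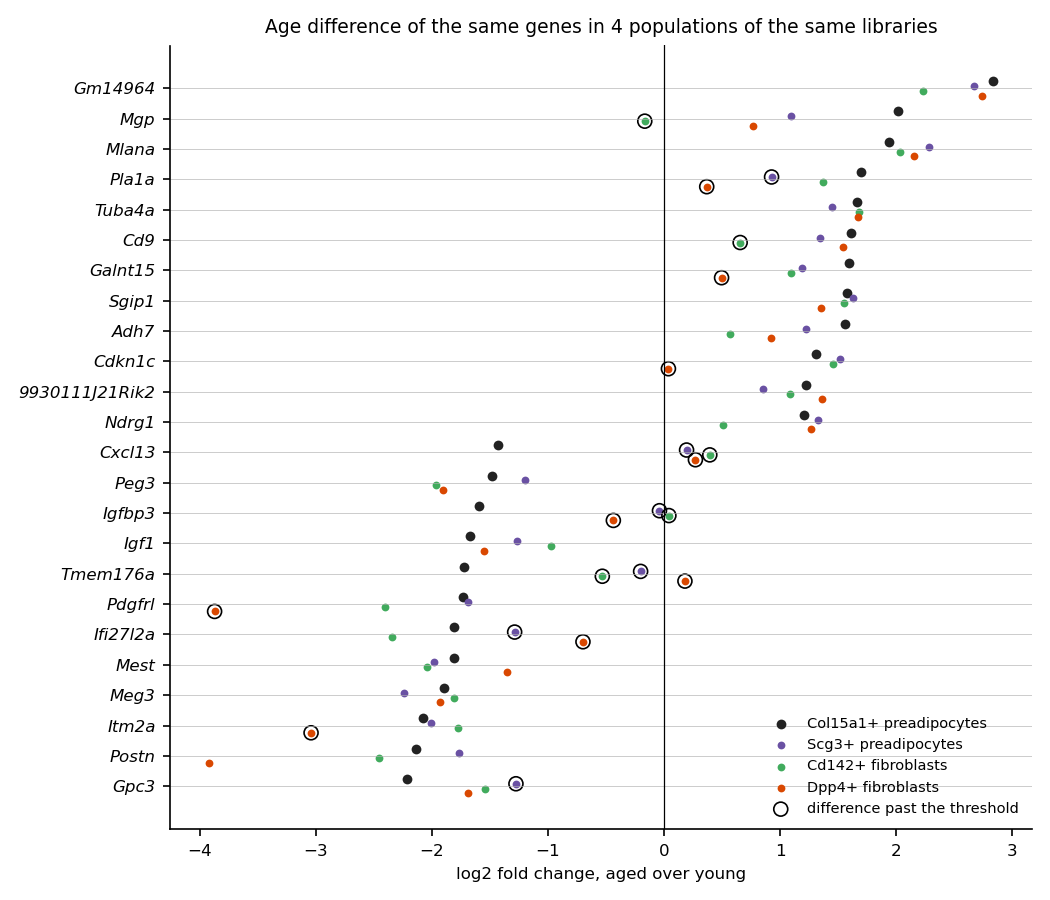
Log2 fold changes with age of the genes named for age in Col15a1+ preadipocytes beside those of the same genes in Scg3+ preadipocytes, Cd142+ fibroblasts and Dpp4+ fibroblasts. Cxcl13, Igfbp3 and Tmem176a lie far below 0 in Col15a1+ preadipocytes (-1.43, -1.59 and -1.73) and between -0.53 and 0.39 in the other populations.

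Cxcl13, Igfbp3 and Tmem176a fell with age in the members more than in each of the 3 other populations. Cxcl13 (chr5:95956951-95961068, forward strand) differed by -1.53 ± 0.23 (adjusted p = 0.0042) from Scg3+, -1.83 ± 0.37 (adjusted p = 0.023) from Cd142+ and -1.66 ± 0.17 (adjusted p = 0.00038) from Dpp4+ cells. In Scg3+ preadipocytes it was at 171, 213 and 119.9 CPM in young and 172, 210.2 and 193 CPM in aged mice, and in Dpp4+ fibroblasts at 379, 356 and 329 CPM in young and 454, 350.4 and 489 CPM in aged mice, where young and aged libraries overlapped. At 2000 UMIs a Cxcl13 UMI was seen in 8.44, 7.52 and 9.52% of young and 2.76, 2.64 and 3.04% of aged members (21.7, 18.03 and 20.2% and 6.10, 4.76 and 9.94% without thinning), in 8.07% to 15% of Scg3+ preadipocytes and in 0.487% to 1.39% of endothelial barcodes. The difference from Cd142+ fibroblasts did not pass under DESeq2, without possible doublets, nor without young 14D, aged 3D or aged 14D.

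Igfbp3 (chr11:7206086-7213923, reverse strand) differed by -1.54 ± 0.16 (adjusted p = 0.00025), -1.60 ± 0.18 (adjusted p = 0.00014) and -1.11 ± 0.22 (adjusted p = 0.019) in the same order. It was at 40.0, 194 and 88.4 CPM in young and 36.9, 147 and 125 CPM in aged mice in Scg3+ preadipocytes, and at 282, 948 and 598 CPM in young and 209.6, 859 and 951 CPM in aged mice in Cd142+ fibroblasts, of which it is a marker. In all of these populations it was highest in the cold, and the aged libraries of Scg3+ and Cd142+ cells overlapped the young ones. Those of the members lay below the young ones, but aged 14D (39.93 CPM) was nearly level with young TN (39.95 CPM). The share of members with an Igfbp3 UMI at 2000 UMIs was 5.37, 15.6 and 8.44% in young and 1.60, 3.70 and 6.09% in aged mice (15.5, 34.8 and 20.2% and 4.56, 8.37 and 12.4% without thinning), against 10.0% to 15.03% of endothelial barcodes. The part of free RNA in these low shares was not tested. The difference from Dpp4+ fibroblasts did not pass without aged 3D, nor with Col15a1 at 3 or more per 10000 UMIs.

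Tmem176a (chr6:48840919-48847071, forward strand) differed by -1.58 ± 0.23 (adjusted p = 0.0042), -1.24 ± 0.24 (adjusted p = 0.016) and -1.89 ± 0.29 (adjusted p = 0.0039). It was at 33.7, 38.4 and 33.2 CPM in young and 26.0, 40.3 and 26.7 CPM in aged mice in Scg3+ preadipocytes and at 214, 126 and 180.3 CPM in young and 73.7, 161 and 136 CPM in aged mice in Cd142+ fibroblasts, where young and aged libraries overlapped. Of the members, 3.73, 4.44 and 7.26% of young and 1.16, 2.47 and 1.01% of aged had a UMI at 2000 UMIs (9.10, 12.1 and 18.2% and 3.15, 5.46 and 4.67% without thinning), against 17.5% to 31.6% of endothelial barcodes. The difference from Cd142+ fibroblasts did not pass with equal numbers of cells at 2000 UMIs, with Col15a1 at 5 or more UMIs, nor without young 3D, young 14D or aged 14D.

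Other age effects differed from 1 or 2 of the populations. The rise of Pla1a was larger in the members than in Scg3+ preadipocytes by 0.77 ± 0.10 (adjusted p = 0.00095) and than in Dpp4+ fibroblasts by 1.34 ± 0.19 (adjusted p = 0.0026). The fall of Gpc3 was deeper than in Scg3+ preadipocytes by -0.94 ± 0.14 (adjusted p = 0.0042), though not with equal numbers of cells at 2000 UMIs, and that of Ifi27l2a deeper than in Scg3+ by -0.51 ± 0.07 (adjusted p = 0.002) and than in Dpp4+ cells by -1.09 ± 0.16 (adjusted p = 0.0034). In contrast, Itm2a and Pdgfrl fell less in the members than in Dpp4+ fibroblasts, by 1.00 ± 0.13 (adjusted p = 0.0018) and 2.12 ± 0.24 (adjusted p = 0.00055). Cdkn1c rose in the members and had a log2 fold change of 0.04 (adjusted p = 0.73) in Dpp4+ fibroblasts, a difference of 1.30 ± 0.13 (adjusted p = 0.00033). Against Cd142+ fibroblasts the rise of Cd9 was larger by 0.96 ± 0.12 (adjusted p = 0.00044). Pltp and Gpnmb, higher with age in all 4 populations, rose less in the members than in Dpp4+ fibroblasts, by -2.12 ± 0.14 (adjusted p = 1.5e-05) and -0.94 ± 0.13 (adjusted p = 0.002).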

How the data were processed

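Single-cell RNA libraries (10x Genomics 3' chemistry, v3.1) were analysed from the UMI counts that the authors deposited as filtered gene by barcode matrices, which they had made with Cell Ranger on the mm10 build. Version 3.1.0 stands in the file headers. These raw counts were used as they are, and the study's own Seurat objects (R 4.1.1) and Wilcoxon tests over cells were not. Of 31053 gene IDs, 30934 are in GENCODE M21, from which coordinates were taken. Cells were not clustered, no doublet caller was run, and members and the compared populations were picked by UMI limits. Dpp4+ fibroblasts had at least 3 UMIs of Pi16 and 1 of Dpp4, and Cd142+ fibroblasts at least 3 of Fmo2 and Cyp2f2 together.

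UMIs were summed over the cells of each population and library and tested across libraries with edgeR 4.0.16 (quasi-likelihood, TMM scaling, filterByExpr) in R 4.3.3, with temperature as a term for age and age as a term for temperature, which leaves 2 residual degrees of freedom. Differences of age effects were tested on 12 sums with the library as a block, which leaves 4. Values after ± are standard errors of log2 fold changes. With 1 library per age and temperature, p-values measure the spread between these samples only. CPM of named and listed genes carry TMM scaling within the members, those set beside other populations carry it over populations, and those of the rule genes and marker lists carry none. Genes used by the rule were fitted and adjusted with the rest (9 for age and 9 for temperature). They were then left out of the counts for the members, the gene lists and the named genes.

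Members and gene lists were chosen with earlier results of these data known. Genes were named by a rule among called genes with a mean of 20 CPM or more over the 6 sums (for differences, in either age of either population): for age the 12 largest rises and 12 largest falls with 1 direction at all 3 temperatures and no overlap of ages, for temperature the 6 largest of each direction at 14D with 1 direction in both ages, for differences the 4 largest of each direction, for levels the first 10, and in each list the called members with the highest CPM. Other list members named beside a count, such as H19 and Fbn2, were chosen after their values were seen, and 1 called gene of a list is not reported here. Scripts were checked on simulated counts. DESeq2 1.42.0, another scaling, filters, limits on cells, equal depth and leaving out each library were alternatives. Python 3.11.15 with numpy 2.4.6, scipy 1.17.1, pandas 2.3.3 and matplotlib 3.10.9 did the rest.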

Additional observations from a re-analysis of the deposited data

Results flagged for a closer look

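The values below are differences between the age effect (log2, aged over young) of the members and that of another fibroblast population, each past an adjusted p of 0.05 in edgeR's quasi-likelihood test of that difference with the library as a block. They are the 4 largest in each direction by the naming rule, and where fewer are given no more met it.

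Haemoglobin genes were more negative in the members. Against Scg3+ preadipocytes the difference was -6.40 for Hba-a2, -6.30 for Hba-a1 and -6.19 for Hbb-bs. Against Cd142+ fibroblasts it was -7.87 for Hba-a1, -7.63 for Hbb-bt, -7.58 for Hbb-bs and -7.53 for Hba-a2, and against Dpp4+ fibroblasts -6.06 for Hbb-bt. The UMIs were held unevenly: 1 member of the young 3D library held 70.5% of its Hba-a1 UMIs and 63.5% of its Hbb-bs UMIs, and 1 member of the aged 14D library 85.7% and 88.7%. Over the alternatives the values against Scg3+ preadipocytes ranged from -6.67 to -0.99 for Hba-a2, -6.71 to -1.48 for Hba-a1 and -6.47 to -1.07 for Hbb-bs, and those against Cd142+ fibroblasts from -9.95 to -1.15 for Hba-a1, -9.47 to -2.68 for Hbb-bt, -10.02 to -0.87 for Hbb-bs and -9.70 to -1.58 for Hba-a2. Without young 3D none of the differences of haemoglobin genes passed, and those against Cd142+ fibroblasts did not without aged TN either.

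Against Scg3+ preadipocytes, Pla1a differed by 0.77, from a mean of 66.2 CPM in young to 214 CPM in aged members and from 117 to 221 CPM in Scg3+ cells, and Tmem176a by -1.58, from 32.6 to 9.32 CPM in members and from 34.8 to 30.4 CPM in Scg3+ cells. Pla1a was thus higher with age in both and from a lower start in the members.

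Against Cd142+ fibroblasts the largest positive differences were in genes with far more transcript in the other cells. Mgp differed by 2.23, from 16.0 to 63.2 CPM in members and from 679 to 613 CPM in Cd142+ cells. Arhgdib, a gene best known from blood cells, differed by 2.19 (1.86 to 3.34 CPM against 84.8 to 38.2 CPM), Cd109, a TGF-beta co-receptor, by 2.18 (1.28 to 11.5 CPM against 18.9 to 37.7 CPM), and Klf5, a Krüppel-like factor, by 1.83 (3.32 to 5.13 CPM against 36.4 to 16.4 CPM). With equal numbers of cells at 2000 UMIs Arhgdib, Cd109 and Klf5 did not pass, Klf5 did not without young 3D, young 14D or aged TN, and Mgp did not with DESeq2.

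Against Dpp4+ fibroblasts the positive differences were 2.71 for Creb3l3 (22.2 to 12.4 CPM in members, 4.40 to 0.370 CPM in Dpp4+ cells), 2.29 for the chemokine scavenger gene Ackr2 (2.22 to 9.42 CPM against 50.4 to 44.8 CPM), 2.12 for Pdgfrl (36.4 to 11.2 CPM against 16.4 to 1.12 CPM) and 2.03 for the thrombin receptor gene F2r (4.62 to 29.4 CPM against 0.999 to 1.55 CPM). The negative ones were -3.08 for Snhg11 (7.55 to 3.70 CPM against 10.1 to 43.1 CPM), -2.48 for the transcription factor gene Dmrt2 (6.61 to 1.14 CPM against 33.6 to 34.0 CPM) and -2.18 for the prostacyclin synthase gene Ptgis (34.2 to 6.23 CPM against 160 to 130 CPM). Of these, Ackr2 and F2r were higher in aged than in young members and the others lower. F2r did not pass without young 3D, young 14D, aged TN or aged 14D, and with equal numbers of cells neither it nor Creb3l3, Ackr2 or Dmrt2 did.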

How the results depend on the processing

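No paired analysis was possible because replicate numbers pair nothing where each group is 1 library, so libraries were matched only by the temperature term and populations by the library block. The number of genes that differed with age was 1065 and became 458 with DESeq2, 302 with equal numbers of cells at 2000 UMIs and 198 without the temperature term, and 315 to 1331 when 1 library was left out. For temperature the number was 535, and 275 with DESeq2, 1453 with no filter on low counts, 217 with equal numbers of cells and 0 without the age term, and 72 to 1780 with 1 library left out. Differences of the age effect numbered 25 against Scg3+ preadipocytes (134 with no filter, 40 without possible doublets, 39 with population by temperature terms, 17 to 58 with 1 library left out), 45 against Cd142+ fibroblasts (28 with DESeq2, 113 with no filter, 19 with equal cells, 22 to 51) and 287 against Dpp4+ fibroblasts (711 with no filter, 114 with equal cells, 610 with population by temperature terms, 137 to 268). The causes were not tested.

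All 24 genes named for age kept their call in every alternative but DESeq2, where Postn did not pass, and the fit without a temperature term, where Postn, Igf1 and Igfbp3 did not. Of the 12 named for temperature, Hba-a1 and Gm3336 did not pass with DESeq2 or without young 3D, Gm3336 without aged 3D, Lsmem1 with equal cells, Hba-a1 with Col15a1 at 3 or more per 10000 UMIs, and none without the age term. Of 1139 values recomputed for 76 named genes by age, 982 kept direction and call, 153 lost the call, 4 gained it and 0 changed sign. By temperature 590 of 765 did so, 159 lost the call and 16 changed sign. For 37 named differences of the age effect, 484 of 545 values did so, 59 lost the call and 2 changed sign. Of 1020 recomputed list counts, 339 moved by more than 1.5 times. A fit without a library assumes that the lone sample of its temperature varies like the rest.

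The sign at 14D over TN changed for Sfrp2 (0.36) and Ccnd1 (0.14) with equal cells and for Hspb1 (0.0076) with Col15a1 at 5 or more UMIs. With 1 library left out it ranged from -0.62 to 8.80 for Hba-a1, -0.25 to 0.19 for Sparc, -0.29 to 0.048 for Col3a1, -0.011 to 0.27 for Ccl11, -0.026 to 1.07 for Ccl7, -0.45 to 0.020 for Fzd4, -0.061 to 0.18 for Fosl2, -0.37 to 0.19 for Hspb1 and -0.85 to 0.64 for Ccnd1. The difference of Hbb-bt from Dpp4+ fibroblasts was 1.80 with DESeq2 and -8.19 to 2.98 with 1 library left out. With equal cells the lowest log2 ratio to the highest other population was -0.48 for Cd300lg, -0.079 for Ephx2 and -0.33 for Pappa.

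Depth limits genes of few UMIs: members of the aged 14D library held 4095244 UMIs against 8611620 or more in the others, and Cd142+ fibroblasts numbered 72 to 236 cells a library.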

Other observations

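Members differed among themselves beyond counting error in some genes. With every member thinned to 2000 UMIs, the variance over the mean of a gene's UMIs across members was 12.2 to 20.4 by library for the nuclear non-coding RNA Malat1, 7.04 to 11.3 for Gsn, which encodes the actin-severing protein gelsolin, and 6.32 to 10.4 for Ccl7. It was 3.65 to 7.45 for Fabp4 and 3.52 to 5.74 for Meg3. The median over 1145 genes with a mean of at least 0.2 UMIs was 1.02, taking each gene's lowest library.

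The same test of age called 904 of 11261 genes in Scg3+ preadipocytes, 260 of 8607 in Cd142+ fibroblasts and 2175 of 12824 in Dpp4+ fibroblasts, which had other numbers of cells than the members. At the edges of the rule, 481 members had 2 UMIs of Lamc3, Cxcl14, Cox8b and Hsd11b2 together while 565 cells that met every other limit had 1. In the same way 192 members had 2 Pi16 UMIs and 37 cells had 3, and 662 members had 1 UMI of Fmo2 and Cyp2f2 while 222 cells had 2.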
